A study of Mus musculus with 2 samples.

Results

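Interfollicular epidermis is the skin surface between hair follicles, and the spots described here are those in which its keratinocyte genes stood out. A spot is a small barcoded area of a tissue section on which RNA is captured, and it can hold several cells of different kinds. A spot was taken when it held at least 100 UMIs (counted RNA molecules), at least 3 UMIs and 0.5% of its UMIs in the 5 marker genes Lor, Krt10, Krt1, Krtdap and Sbsn, and no fewer marker UMIs than UMIs of 8 hair follicle genes (Krt25, Krt27, Krt28, Krt71, Krt34, Krt35, Krt75 and Tchh). This gave 352 of 5745 kept spots, of which 148 of 3064 lay in the micropillar library and 204 of 2681 in the flat library. The levels of these 13 genes chose the spots, so their values describe the choice and are not results.

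The series holds 2 spatial libraries, 1 from nude mice with a micropillar implant (a surface patterned with small posts) and 1 from nude mice with a flat implant. Both were made from formalin-fixed, paraffin-embedded sections, and both are labelled as bone. Nude mice lack a working Foxn1 gene, and so have no thymus and a defective hair coat; every animal of the series shared this genotype. The number of animals behind each section is not given in the sources used here. With 1 library per group there was no replicate check, so values of the libraries are set side by side without a test, and all 95% intervals (exact Clopper-Pearson for shares and ratios, exact Poisson for sums) cover counting error only.

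In the epidermis, keratinocytes divide in the basal layer on a basement membrane, then move outward through spinous and granular layers while they change keratins, and end as flattened dead cells. The dead cells owe their strength to the cornified envelope, a protein shell crosslinked by transglutaminases, and their water barrier to lipids released between them. Many envelope genes lie side by side in 1 cluster, the epidermal differentiation complex. Langerhans cells and T cells live among the keratinocytes.

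The median epidermis spot held 778 UMIs from 602 genes in the micropillar library, against 426.5 UMIs from 348 genes in the flat library. Summed over spots they held 124562 and 97269 UMIs, which was 3.92% and 4.30% of the UMIs of kept spots. The 2916 other micropillar spots and 2477 other flat spots had medians of 835.5 and 632 UMIs. The 8 bone genes checked summed to 7 UMIs in micropillar epidermis spots and 10 in flat epidermis spots, and 4 and 5 of the 8 were at 0. That was 56.2 and 103 CPM (UMIs scaled to a common total), against 221 and 186 CPM in other spots. The intervals overlapped in the flat library (49.3 to 189 CPM, against 168 to 205 CPM). Genes of the labelled tissue were thus sparse in epidermis spots, and low in other spots too. The libraries shared 2135 barcodes, 64.6% of those in the micropillar library and 67.5% of those in the flat library, and 11 barcodes were epidermis spots in both. Foxn1 had 0 UMIs in epidermis spots of both libraries, where a count of 0 allows a level of up to 24.1 and 30.8 CPM. The other kept spots held 6 UMIs of it in the micropillar library and 1 in the flat library. A count of UMIs gives a gene's level and not its sequence, so the genotype was not checked.

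Membership was graded. Marker UMIs per spot ran from 3 through a median of 18.5 to 124 in micropillar epidermis spots and from 3 through 15 to 74 in flat epidermis spots. As a share of the spot's UMIs, the markers took from 0.507% through 2.54% to 11.3% in the micropillar library and from 0.561% through 3.82% to 15.2% in the flat library. All 5 markers were found in 65 micropillar and 88 flat epidermis spots, and a single marker gene in 5 and 3. Just inside the limit, 12 micropillar and 8 flat spots had exactly 3 marker UMIs. Just outside it, 179 and 69 spots had exactly 2, and 137 and 7 spots had 3 or more but under 0.5% of their UMIs. The hair condition turned away 5 micropillar and 19 flat spots. At least 1 UMI of the hair genes was present in 73 micropillar epidermis spots (49.3%) and in 61 flat ones (29.9%), at the unequal depths given above. After thinning to 100 UMIs these shares were close, at 13.5% and 14.2%.

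**Figure D1:**
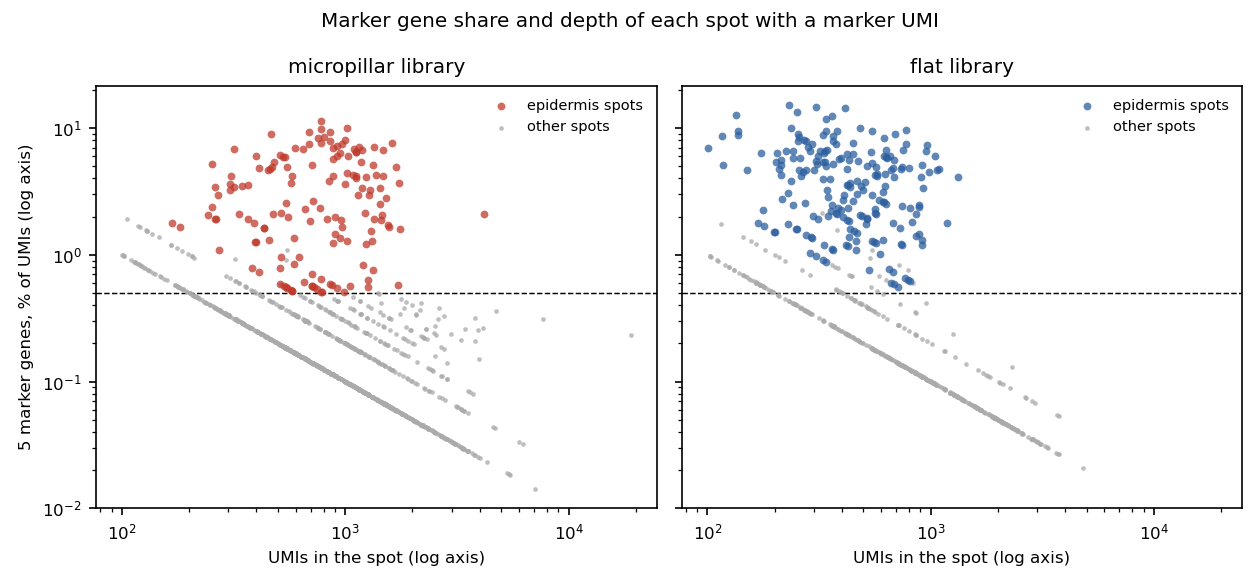
Each point is 1 spot with at least 1 marker UMI, with the spot's UMIs on the x axis and the share of its UMIs in the 5 marker genes on the y axis (both log axes), the micropillar library on the left and the flat library on the right; coloured points are epidermis spots, grey points other spots, and the dashed line is the 0.5% limit. Flat epidermis spots are shallower (median 426.5 UMIs, against 778 in the micropillar library), and the micropillar library has 137 spots with 3 or more marker UMIs below the line, against 7 in the flat library.

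Epidermis spots made up 4.83% of micropillar spots (4.10 to 5.65%) and 7.61% of flat spots (6.63 to 8.68%). The rule asks for a number of UMIs and so depends on depth. After each spot was thinned to 100 UMIs, the shares were 2.28% (1.79 to 2.88%) and 4.74% (3.96 to 5.61%), and after thinning to 250 UMIs they were 123 of 2733 spots (3.75 to 5.35%) and 159 of 2028 spots (6.71 to 9.10%), with 3 micropillar and 29 flat epidermis spots left out as too shallow. The flat share was the higher at both thinned depths, but among spots of at least 500 UMIs the shares were 5.14% in the micropillar library and 5.29% in the flat library. How much skin each section held was set when it was cut, and that cannot be told apart from any difference between the implants.

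The sequences that follow are the 150 bases before the start of transcription of 6 genes of the differentiation complex. Lor (loricrin, the main envelope protein) is a marker of the rule. Flg and Hrnr encode filaggrin and hornerin of the granular and cornified layers, and Sprr1b a small proline-rich envelope protein. Flg, Hrnr and Sprr1b were among the genes with the largest excess in these spots. Lce3c and Lce3f (late cornified envelope proteins) had the lowest micropillar over flat ratios of the cluster among genes with at least 30 UMIs. The 6 genes are shown as examples: the main envelope protein, genes far above the other spots and the lowest ratios between the libraries. Sequences are from RefSeq on GRCm38.p6, chromosome 3, written 5′ to 3′ on the gene's strand. Capitals mark matches, on either strand, to short motifs whose letters are given after the sequences.
Lor, chr3:92083143-92083292, minus strand: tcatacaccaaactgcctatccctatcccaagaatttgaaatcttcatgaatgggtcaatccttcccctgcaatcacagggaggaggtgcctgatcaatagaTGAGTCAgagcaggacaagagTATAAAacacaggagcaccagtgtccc
Flg, chr3:93273396-93273545, plus strand: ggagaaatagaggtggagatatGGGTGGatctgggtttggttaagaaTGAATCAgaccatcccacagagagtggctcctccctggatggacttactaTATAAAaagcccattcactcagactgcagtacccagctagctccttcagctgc
Hrnr, chr3:93319599-93319748, plus strand: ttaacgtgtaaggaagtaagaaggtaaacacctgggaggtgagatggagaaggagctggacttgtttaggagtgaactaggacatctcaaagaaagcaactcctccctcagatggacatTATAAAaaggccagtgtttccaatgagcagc
Sprr1b, chr3:92438780-92438929, minus strand: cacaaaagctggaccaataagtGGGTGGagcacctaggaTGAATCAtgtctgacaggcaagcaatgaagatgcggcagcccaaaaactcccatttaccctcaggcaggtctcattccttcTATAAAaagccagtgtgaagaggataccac
Lce3c, chr3:92944336-92944485, plus strand: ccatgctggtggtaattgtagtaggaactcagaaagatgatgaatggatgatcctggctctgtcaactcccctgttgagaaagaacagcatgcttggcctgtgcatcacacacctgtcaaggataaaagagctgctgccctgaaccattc
Lce3f, chr3:92992067-92992216, plus strand: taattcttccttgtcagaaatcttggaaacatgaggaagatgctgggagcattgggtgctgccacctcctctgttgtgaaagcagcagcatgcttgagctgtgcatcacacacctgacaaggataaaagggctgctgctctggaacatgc

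The letters TGANTCA, bound by AP-1 factors in keratinocytes, were found in Lor, Flg and Sprr1b. The core promoter letters TATAAA were found in Lor, Flg, Hrnr and Sprr1b. The letters CCACCC, a motif of Klf factors, were found in Flg and Sprr1b. Lce3c and Lce3f held none of these letters, nor the grainyhead letters AACNGGTT, in the window searched, from 250 bases before the start to 50 after it, and their shown stretches had the same base at 85 of 150 positions (56.7%). Of 19 promoters of complex genes that were at least 2-fold higher in epidermis spots of both libraries, 7 held the AP-1 letters, 9 the core promoter letters, 9 the Klf letters and 1 the grainyhead letters, in that window and on either strand. These promoters belong to 18 of the 24 such genes. Over all 32851 promoters of that length the shares were 7.81%, 13.6%, 31.5% and 2.09%, and over the 10235 promoters of genes compared they were 5.05%, 6.90%, 38.3% and 1.65%. Over the 1233 promoters of all genes at least 2-fold higher in both libraries they were 8.68%, 8.27%, 41.8% and 1.70%. A match is a string of letters and not a measured binding site.

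Epidermis spots against the other kept spots of the same library showed the keratinocyte programme around the markers. Since the rule used this contrast, its counts are descriptions. Of 9946 genes compared, 1249 (12.6%) were at least 2-fold higher in epidermis spots of both libraries and 2472 (24.9%) at least 2-fold lower. A total of 2995 (30.1%) were higher by any amount in both, and the median log2 ratio was -0.34 in the micropillar library and -0.39 in the flat library. TMM scaling, a scaling built on the bulk of the genes, moves all of these log2 ratios by -0.19 and -0.37, and the ratios printed here are without that shift. In summed RNA of spots, fewer cells of a kind and less RNA per cell cannot be told apart.

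Of the 15 genes named for the largest excess, several are known from the granular and cornified layers. Flg had 1046 UMIs in micropillar epidermis spots and 1207 in flat ones, a level of 8397 and 12409 CPM, against 162 and 64.6 CPM in the other spots. Hrnr had 827 and 1069 CPM, against 14.4 and 4.62 CPM. Casp14, a protease that processes filaggrin, had 337 and 607 CPM, against 3.94 and 5.54 CPM, and Asprv1, another filaggrin protease, had 297 and 216 CPM, against 5.25 and 3.23 CPM. In each of these 4 genes the level in either library's epidermis spots was above that in either library's other spots. The genes were named for a large excess in both libraries, so this describes the choice.

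Further named genes were Calm4, a calcium-binding protein of differentiating keratinocytes, with log2 ratios of epidermis over other spots of 5.98 in the micropillar library and 7.19 in the flat library, and Sprr1b, with 5.78 and 6.63. Defb6, a beta-defensin, had 5.96 and 6.34. Krt6b, a keratin induced in stressed epidermis, had 5.82 and 6.24, and Chit1, a chitinase, had 1044 and 1439 CPM, against 16.1 and 4.62 CPM in other spots. Fcgbp, Teddm3, Rnf225, Fetub, Nccrp1 and 2310046K23Rik also had ratios of at least 5.44 in both libraries. Of these 15 genes 4 (Sprr1b, Hrnr, Flg and 2310046K23Rik) lie in the differentiation complex on chromosome 3.

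At the low end stood genes of neurons. Nptx1, a synaptic pentraxin, had 0 UMIs in epidermis spots of both libraries, against 773 in other micropillar spots and 630 in other flat spots, which is at least 10.5-fold and 9.43-fold lower with 3 UMIs taken as the limit of a count of 0 in each summed set. Gm1673, Lrrtm1, Srrm3 and Fam131b were at 0 in both libraries, and Pde1b, Pacsin1 and Ncan had at most 1 UMI in either. The other spots of both sections were rich in neural RNA, with 7824 and 8740 CPM in 8 neural genes, so these ratios also describe what epidermis was compared with.

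**Figure D2:**
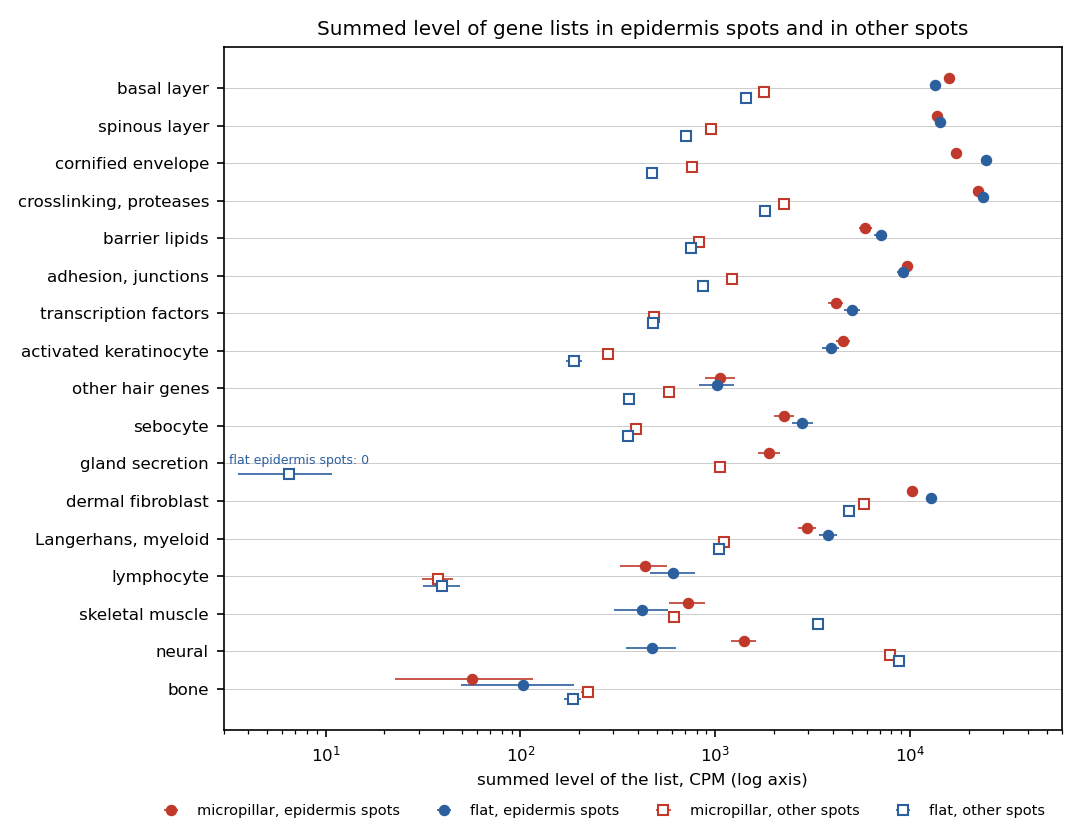
Summed level of each gene list in CPM (log axis) in epidermis spots (filled circles) and other spots (open squares) of the micropillar library (red) and the flat library (blue); bars are 95% Poisson intervals. Every keratinocyte list is higher in epidermis spots than in other spots, and the gland secretion genes are at 0 in flat epidermis spots, against 1879 CPM in micropillar epidermis spots.

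Lists were chosen by layer and function. For the basal layer, 9 of 12 compared members were at least 2-fold higher in epidermis spots of both libraries, beside 12.6% of all genes. The list holds 16 genes, of which Sfn had 0 UMIs in epidermis spots of both libraries. Krt14, the basal keratin, had 12556 CPM in micropillar and 10075 CPM in flat epidermis spots, against 597 and 334 CPM in other spots, and was found in 137 of 148 and 188 of 204 epidermis spots. Its partner Krt5 had 610 and 668 CPM, against 38.4 and 16.6 CPM. Trp63, the transcription factor of the basal layer, had 289 and 257 CPM, against 26.6 and 19.4 CPM. Dst, which anchors keratin at hemidesmosomes and is also made in neurons, was close to the other spots, with log2 ratios of 0.14 and 0.43.

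In the spinous list, 8 of 9 compared members were at least 2-fold higher and 1 at least 2-fold lower in both libraries. Krt2 and Skint3, of its 15 genes, had 0 UMIs in epidermis spots of both libraries. Lgals7, a galectin of stratified epithelia, had 6342 and 7135 CPM, against 288 and 192 CPM in other spots, and Aqp3, the water and glycerol channel of keratinocytes, had 554 and 545 CPM, against 11.2 and 12.5 CPM. All 16 compared members of the cornified envelope list were at least 2-fold higher in both. So were 15 of 17 of the crosslinking and protease list, 14 of 16 of the barrier lipid list and 17 of 18 of the adhesion list. The same held for 12 of 16 of the transcription factor list and 9 of 9 of the activated keratinocyte list. The filter counts UMIs of epidermis and other spots together, so genes found mainly in epidermis spots entered through those spots, and these counts partly follow from it. Of 35 envelope genes, 7 in micropillar and 8 in flat epidermis spots had 0 UMIs. Crnn, with 2 and 0 UMIs against 24 and 7 in other spots, was not compared. Tgm1, the transglutaminase that crosslinks the envelope, had 409 and 545 CPM, against 34.4 and 18.0 CPM. Elovl4, which lengthens fatty acids for barrier ceramides, had 947 and 1223 CPM, against 55.1 and 54.5 CPM. Klf4, the transcription factor of barrier formation, had 955 and 1275 CPM, against 42.6 and 24.0 CPM.

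Hair follicle keratin spots, those with at least 3 UMIs and 0.5% in the 8 hair genes and more hair than marker UMIs, were the nearest set (237 micropillar and 143 flat spots). The cornified envelope list had 17100 and 24407 CPM in epidermis spots, against 6903 and 9402 CPM in hair keratin spots. Barrier lipid genes had 5885 and 7032 CPM, against 2254 and 3286 CPM. The envelope gene Sprr1a ran the other way, with 2208 and 2231 CPM, against 3695 and 5204 CPM. Basal layer genes had 15719 and 13386 CPM, against 8216 and 8503 CPM. Epidermal transcription factors were closer, with 4151 and 5027 CPM, against 3160 and 3849 CPM. Adhesion genes were not higher in epidermis spots, with 9658 and 9170 CPM, against 11024 and 11977 CPM in hair keratin spots. Dermal fibroblast genes had 10228 and 12820 CPM, against 12114 and 12379 CPM. Adipocyte genes were low in epidermis spots, with 466 and 607 CPM, against 3959 and 4520 CPM.

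Immune genes of the skin were present. Cd207, which marks Langerhans cells, had 13 UMIs in 11 micropillar epidermis spots and 8 UMIs in 8 flat ones, against 5 and 3 UMIs in all other spots. Cd74 and H2-Eb1, which serve antigen presentation, had 1156 and 626 CPM in micropillar and 1614 and 1008 CPM in flat epidermis spots. In other spots Cd74 had 195 and 217 CPM and H2-Eb1 had 90.8 and 85.4 CPM. The complement gene C1qa of macrophages had 80.3 and 113 CPM, against 80.0 and 70.2 CPM, a log2 ratio of 0.00 and 0.68. Trbc2, a T cell receptor constant region, had 38 UMIs in 27 spots and 52 UMIs in 38 spots, with log2 ratios over other spots of 3.64 and 4.09. Its near copy Trbc1 had 13 and 5 UMIs, and reads of the pair may not be told apart. Trac and Cd3g had 0 UMIs in epidermis spots of both libraries, Trdc had 1 and 1, Cd3d 1 and 0, and Cd3e 0 and 1.

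Among epidermis spots the outermost programme followed the marker share, and the basal programme did not. In spots with 0.5 to 2%, 2 to 5% and 5% or more marker UMIs, the cornified envelope list had 6009, 13789 and 37580 CPM in the micropillar library (63, 46 and 39 spots) and 10282, 17601 and 47251 CPM in the flat library (56, 75 and 73 spots). Its Spearman correlation with the marker share over spots was 0.86 (n = 148) and 0.75 (n = 204), as a description, since both are shares of the same spot's UMIs and Lor lies in the same programme. The basal layer list had 15534, 16483 and 15056 CPM in the micropillar library and 14043, 14405 and 11397 CPM in the flat library. Sebocyte genes, a list chosen for oil glands, were highest where the marker share was low. They had 3296, 1918 and 1131 CPM in the micropillar library and 5003, 2113 and 1526 CPM in the flat library. Of the 15 genes, Awat2 and Cyp4f14 had 0 UMIs in epidermis spots of both libraries, and Mc5r in those of the micropillar library. Whether the sum came from oil glands was not tested. Adipocyte genes ran the same way, with 804, 316 and 149 CPM in the micropillar library and 1277, 412 and 204 CPM in the flat library.

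**Figure D3:**
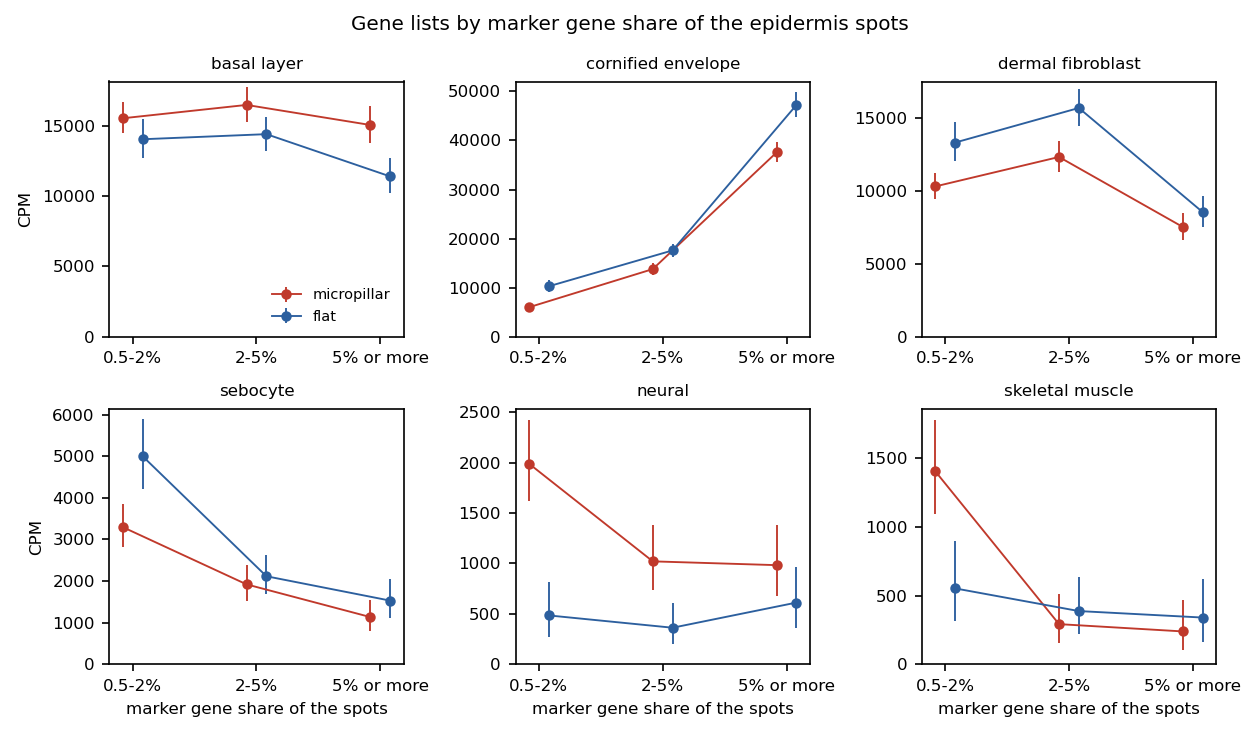
Summed level of 6 gene lists in CPM (y axis from 0) in epidermis spots grouped by the share of their UMIs in the 5 marker genes (x axis), with micropillar in red and flat in blue; bars are 95% Poisson intervals. The cornified envelope list is lower in the micropillar library in each group (6009, 13789 and 37580 CPM, against 10282, 17601 and 47251 CPM), and neural and skeletal muscle genes are highest in micropillar spots with the lowest marker share.

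The comparison of implants asks how micropillar epidermis spots differed from flat ones. Of 2602 genes with at least 20 UMIs over both sets, 152 (5.84%) were at least 2-fold higher and 83 (3.19%) at least 2-fold lower in micropillar spots, 1260 (48.4%) were higher by any amount, and the median log2 ratio was -0.02. The quartiles of the ratio were -0.36 and 0.38. The counts depend on which spots enter: among spots with no UMI of the 8 neural genes (81 micropillar and 166 flat spots) 61 genes were at least 2-fold higher and 75 at least 2-fold lower, among spots with no gland UMI (58 and 204) 68 and 114, among spots with no hair gene UMI (75 and 143) 50 and 73, and among spots with a marker share of at least 3% (68 and 115) 39 and 43.

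Cornified envelope genes were lower in micropillar epidermis spots. The summed list had 17100 CPM, against 24407 CPM in flat epidermis spots, a log2 ratio of -0.51 (-0.60 to -0.43), and it stayed negative, from -0.60 to -0.34, in each of 19 other settings. Of 19 compared members 14 were lower and 5 higher, beside 1342 lower and 1260 higher of all 2602 genes. At least 2-fold lower were 3 members, beside 3.19% of all genes, and the median was -0.41 against -0.02 over all genes. Flg was lower by a log2 ratio of -0.56 (-0.68 to -0.44) and was found in 112 of 148 micropillar and 163 of 204 flat epidermis spots. Crct1, a small cysteine-rich protein of the complex, had 1381 CPM, against 2251 CPM in flat epidermis spots (-0.70), and Cnfn, cornifelin, had 530 CPM, against 966 CPM (-0.87, -1.34 to -0.40). For the proline-rich members no difference was detectable, with Sprr1a at 2208 CPM, against 2231 CPM in flat epidermis spots (-0.02, -0.28 to 0.25), Sprr1b at -0.31 (-0.83 to 0.21), all 11 Sprr genes together at -0.05 (-0.26 to 0.15) and the 10 without Sprr1a at -0.12 (-0.45 to 0.22). The marker share, which chose the spots and ran with this list, was also lower in micropillar spots, and its part in the result was not tested; within each of the 3 groups of marker share the summed list was lower in the micropillar library.

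The lowest ratios in the envelope list belonged to the Lce3 genes. Lce3f had 10 UMIs in 7 micropillar epidermis spots and 43 UMIs in 15 flat ones (log2 ratio -2.45, -3.62 to -1.45), and Lce3c had 24 UMIs in 21 spots and 49 UMIs in 28 spots (-1.38, -2.16 to -0.65). The 5 Lce3 genes summed to 39 and 111 UMIs, or 313 and 1141 CPM (-1.86, -2.43 to -1.33). The share of spots with any of them was 20.9% and 18.1%. These shares are without thinning, at unequal depths (medians of 778 and 426.5 UMIs), and so are not directly comparable. The flat UMIs were concentrated: a single flat spot held 28 of the 111 and the top 5 spots held 56.8% of them, against a top spot of 3 UMIs and 30.8% in the top 5 of the micropillar library. Without the top spot of each library the ratio was -1.56. Reads of these near copies may not be fully told apart. The 7 Lce1 genes had 562 CPM in micropillar and 812 CPM in flat epidermis spots (-0.53, -1.02 to -0.05).

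**Figure D4:**
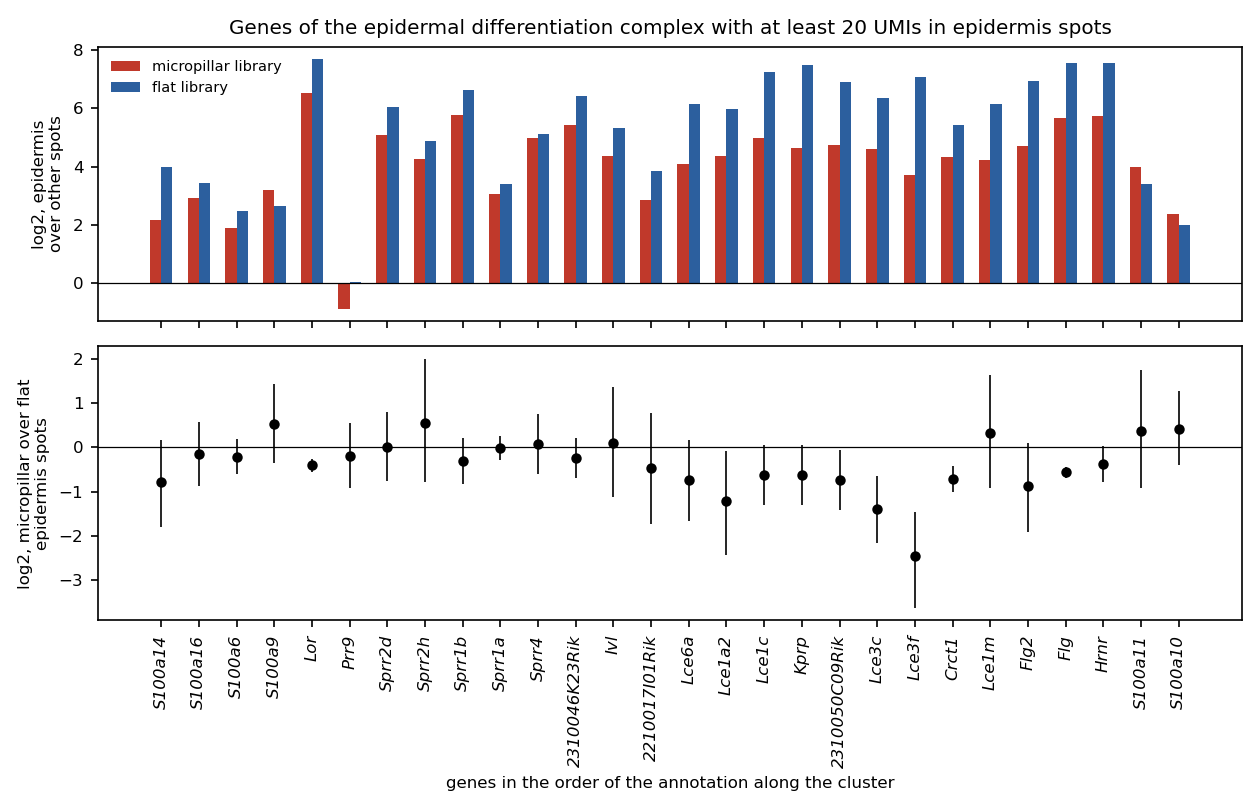
Genes of the epidermal differentiation complex with at least 20 UMIs in epidermis spots, in the annotation's order (Tchh, a gene of the hair condition, is left out): the upper panel gives the log2 ratio of epidermis over other spots in the micropillar (red) and flat (blue) library, the lower panel the log2 ratio of micropillar over flat epidermis spots with 95% counting intervals. In the lower panel Lce3f (-2.45) and Lce3c (-1.38) lie below most of their neighbours. S100a10, S100a11 and S100a9 lie above 0, with intervals that include 0.

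Along the complex, from S100a1 to S100a10 (chromosome 3, 90511034 to 93564643, mm10), 60 genes were listed. Against other spots, 24 of 28 compared genes were at least 2-fold higher in epidermis spots of both libraries and 0 at least 2-fold lower. Over all genes these shares were 12.6% and 24.9%, under the same filter. Between the libraries, 19 of 27 were lower and 8 higher in micropillar epidermis spots, with a median of -0.31, beside 1342 lower of all 2602 genes. At least 2-fold lower were 3 (Lce1a2, Lce3c and Lce3f), beside 3.19% of all genes. These 3 are also in the envelope list, which shares many genes with the complex, so the counts are not separate results. The 6 compared S100 genes, which encode calcium-binding proteins, were split. S100a9 (0.52), S100a10 (0.42, 36 and 21 UMIs) and S100a11 (0.38, 15 and 9 UMIs) were higher in micropillar epidermis spots. S100a14 (-0.79, 17 and 23 UMIs), S100a6 (-0.21, 114 and 103 UMIs) and S100a16 (-0.15) were lower. The intervals of all 6 include 0, so no difference was detectable for any of them.

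Barrier lipid genes and epidermal transcription factors were also lower on balance. Of 15 compared lipid genes 10 were lower and 5 higher (median -0.32, summed -0.26, -0.41 to -0.10), 0 of them by 2-fold. Over all 2602 genes 1342 were lower, with a median of -0.02, and 3.19% were at least 2-fold lower. Fa2h, which makes hydroxylated ceramide fatty acids, had 570 CPM in micropillar and 781 CPM in flat epidermis spots, and Alox12b, a lipoxygenase mutated in ichthyosis, 193 and 308 CPM. Of 12 compared transcription factors 9 were lower and 3 higher (median -0.46, summed -0.28, -0.46 to -0.10). Klf4 had a log2 ratio of -0.42 (-0.79 to -0.04) and Pou2f3, a factor of late differentiation, of -0.58 (-1.22 to 0.05). Barx2, a homeobox factor of skin and hair, had 7 and 19 UMIs and was the 1 member at least 2-fold lower (-1.78, -3.29 to -0.48). Both list sums kept their sign in 19 other settings, from -0.70 to -0.11 for lipid genes and from -0.59 to -0.10 for transcription factors.

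Among keratins, Krt14 and Krt6a were higher in micropillar epidermis spots and the basal partner Krt5 was not (-0.13, -0.63 to 0.37). Krt14 counted 1564 UMIs in micropillar and 980 in flat epidermis spots (log2 ratio 0.32, 0.20 to 0.43), and the summed basal list held 15719 CPM in micropillar and 13386 CPM in flat epidermis spots (0.23, 0.13 to 0.33). Its members were split, 5 higher and 4 lower of 9 with a median of 0.04, which was below 0 under at least 1 other setting (lowest -0.09), while the sum stayed between 0.07 and 0.33. The sum was mostly Krt14: the other members held 394 UMIs in micropillar and 322 in flat epidermis spots, or 3163 and 3310 CPM (-0.07, -0.28 to 0.15). Krt6a, a keratin of wounded and stressed epidermis, had 34 UMIs in 27 micropillar spots and 7 UMIs in 7 flat spots, with a ratio of 1.91 on the log2 scale (0.73 to 3.34), or 1.25 among spots of at least 500 UMIs. Its relatives Krt6b (0.42, -0.25 to 1.11), Krt16 (0.18, -0.16 to 0.52) and Krt17 (0.27, -0.51 to 1.07) had intervals that include 0, and reads of Krt6a and Krt6b may not be fully told apart. In the activated keratinocyte list 6 of 11 members were higher and 5 lower.

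Spinous, crosslinking and adhesion lists had medians of 0.12, -0.08 and 0.01, and each crossed 0 under at least 1 other setting. Their sums were -0.05 (-0.15 to 0.05), -0.09 (-0.17 to -0.01) and 0.07 (-0.05 to 0.20). Of desmosome genes, which hold keratinocytes together, Dsp had 538 CPM in micropillar and 535 CPM in flat epidermis spots (0.01, -0.54 to 0.56), and Dsg1b, whose reads may be shared with its near copy, 594 and 545 CPM (0.12, -0.40 to 0.66). Perp, a desmosomal p53 target, had 498 CPM, against 308 CPM in flat epidermis spots (0.69, 0.04 to 1.37). Casp14 was lower, with 337 CPM, against 607 CPM (-0.85, -1.45 to -0.25), and Spink12, a protease inhibitor, had 18 and 5 UMIs (1.47, 0.01 to 3.28). Of division genes, Ccna2 had 11 and 12 UMIs and Cdk1 had 8 and 14.

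For the immune genes, Cd74 (-0.48, -0.82 to -0.15), H2-Eb1 (-0.69, -1.13 to -0.24) and Trbc2 (-0.81, -1.45 to -0.18) were lower in micropillar epidermis spots. Trbc1, the near copy of Trbc2 whose reads may not be told apart from it, was higher there. The summed lymphocyte list, which holds both copies, was -0.48 (-1.04 to 0.07), an interval that includes 0. Cd207 was 0.34 with an interval from -1.04 to 1.82, so at 13 and 8 UMIs no difference was detectable. The summed Langerhans and myeloid list had 2954 CPM in micropillar and 3794 CPM in flat epidermis spots, but its members were split, with 4 higher and 5 lower of 9 and a median of -0.05. The 1 member past 2-fold was higher, the lysosomal gene Cd68 of macrophages with 18 and 6 UMIs (1.21, -0.17 to 2.85). Dermal fibroblast genes were lower too, 8 of 10 compared members, beside 1342 of all 2602 genes. Their sum was 10228 CPM in micropillar and 12820 CPM in flat epidermis spots, against 5755 and 4846 CPM in other spots. The collagen gene Col1a2 had 3573 CPM, against 5182 CPM in flat epidermis spots (-0.54, -0.72 to -0.35), and Col3a1 had 3829 CPM, against 4400 CPM (-0.20, -0.39 to -0.01).

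The study's title names nuclear shape and secreted factors, so genes of both were read in these spots. Of nuclear envelope genes 1 of 5 compared members was higher and 4 lower (median -0.40), beside 1342 lower of all 2602 genes (median -0.02). The list median ran from -0.50 to 0.27 over the settings, and so crossed 0. The summed nuclear envelope list was -0.09 (-0.36 to 0.19). Lmna, the A-type lamin, had 140 and 92 UMIs (0.25, -0.14 to 0.64), Sun2 had 21 and 25 UMIs (-0.61, -1.52 to 0.29), and Sun1 had 21 and 17 UMIs (-0.05, -1.04 to 0.96). YAP/TAZ target genes had a summed ratio of -0.16 (-0.54 to 0.23). Growth factor genes summed to 1381 CPM in micropillar and 1193 CPM in flat epidermis spots (0.21, -0.14 to 0.56). Of 4 compared members 1 was higher and 3 were lower (median -0.10). Wnt4 had 31 and 26 UMIs, Tgfa 30 and 25 and Wnt10a 23 and 11, in totals of 124562 and 97269 UMIs. Relative to these totals, Wnt4 and Tgfa were lower and Wnt10a higher in micropillar epidermis spots. For all 3 lists the interval of the sum includes 0.

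Many of the genes with the highest ratios were not keratinocyte genes. The secretion genes Mucl2 (95 UMIs in 60 spots), Scgb1b2 (75 UMIs in 52 spots) and Gm1553 (32 UMIs in 24 spots) had 0 UMIs in flat epidermis spots, and so were at least 24.7-fold, 19.5-fold and 8.33-fold higher in micropillar ones with 3 UMIs over the flat spots as the limit of 0. Of 12 gland secretion genes all were at 0 in flat epidermis spots and 4 in micropillar ones. They were not particular to epidermis: 60.8% of micropillar epidermis spots and 55.7% of other micropillar spots held a UMI of the list, or 21.6% and 15.1% after thinning to 100 UMIs, and the other flat spots held 14 UMIs in all. Snap25, Nsg2, Tspan7, Ttc3, Nap1l5 and Cyfip2, genes abundant in neurons, had log2 ratios between 1.94 and 2.30, and Snap25 had 58 UMIs in 31 micropillar spots and 10 UMIs in 10 flat spots.

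The 8 neural genes summed to 1397 CPM in micropillar and 473 CPM in flat epidermis spots, with 0 of 8 and 1 of 8 (Gad1) at 0, and a UMI of the list was present in 45.3% and 18.6% of spots, or 15.5% and 6.86% after thinning to 100 UMIs. Hair keratin spots had 1069 and 389 CPM. Their part in the other differences was not tested; among spots with no neural UMI the cornified envelope sum was -0.43 and Krt6a 1.97. Acta1, skeletal muscle actin, had 39 and 8 UMIs (1.92, 0.81 to 3.24), of which 22 lay in 1 micropillar spot, and without the top spot of each library the ratio was 0.92. Other cell types left few UMIs in epidermis spots: melanocyte genes had 4 in the micropillar and 5 in the flat library, endothelial genes 22 and 11, and red cell genes 57 and 43. Slc3a2, the heavy chain of amino acid transporters, had 32 UMIs in 23 micropillar spots and 3 UMIs in 3 flat spots (3.02, 1.38 to 5.41), against 285 and 189 UMIs in the other spots.

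Among the 12 lowest ratios were, besides Lce3f and Lce3c, Il6st (10 and 23 UMIs, -1.55), the shared receptor chain of the interleukin 6 family, Plk2 (9 and 21 UMIs, -1.57), a stress-responsive kinase, Wwtr1 (11 and 23 UMIs, -1.41), which encodes the cofactor TAZ, and Sdr16c5 (15 and 30 UMIs, -1.35), a retinol dehydrogenase of epithelia. Cpeb2, a regulator of translation, had 20 and 42 UMIs (-1.42, -2.27 to -0.63). Crat, Shisa5, Ppp1r15a, Spop and Ermp1 had between 10 and 12 UMIs in micropillar and between 20 and 25 UMIs in flat epidermis spots. At these counts the intervals are wide, from -2.89 to -0.39 for Plk2. The choice of these genes required the same sign with spots weighted equally, where Wwtr1 was -0.74.

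**Figure D5:**
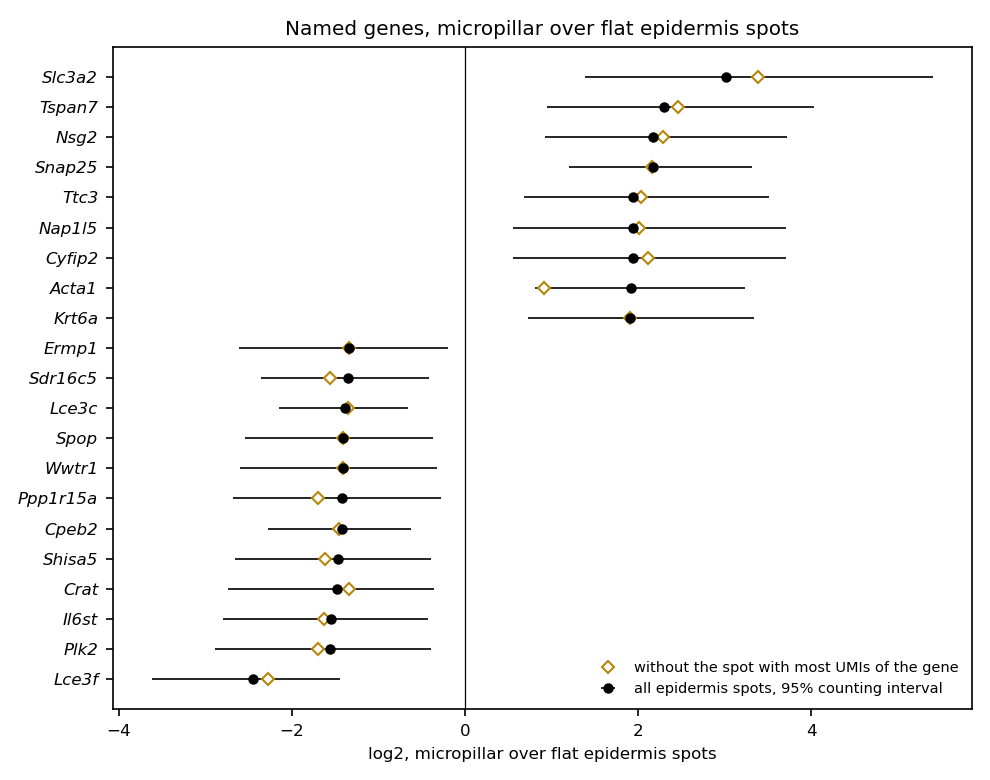
Log2 ratio of micropillar over flat epidermis spots (x axis) for the genes with the highest and lowest ratios that had a UMI in both libraries (y axis); filled points with bars are all epidermis spots with 95% counting intervals, open diamonds leave out the spot with most UMIs of the gene in each library. Acta1 is 1.92 with all spots and 0.92 without the top spots, and Lce3f is -2.45 and -2.28.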

How the data were processed

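The authors deposited counts of UMIs for each gene in each spot; per the file headers these come from Space Ranger 2.0.1. In contrast, Cell Ranger 7.2.0 and mm10 stand in the submitters' processing notes, and a directional library kit for mRNA stands in the labels' protocol. The sources disagree, and none used here gives the probe set or the strand setting. Each library lists 19465 genes; of 11 symbols on 2 rows, the row with more counts was used, and 19440 identifiers matched GENCODE M21 (mm10). Spot positions were not used. Doublets were not called, because spots are not single cells. The members and gene lists were chosen with earlier results of these data known.

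Counts were summed over spots, expressed as CPM and compared as log2 ratios with a pseudocount of 1 CPM; intervals come from the counts alone. Genes needed 20 UMIs over the sets compared, in each library for epidermis against other spots. Called means at least 2-fold. By rule, the text names the 15 genes with the highest ratio in the lower of both libraries (at least 20 UMIs in each) and the 10 with the lowest ratio in the higher of both (at least 100 CPM in other spots), the 12 highest and 12 lowest of micropillar over flat with at least 30 UMIs and the same sign under TMM and equal spot weights, and members of 29 lists; other list members named were chosen after their values were seen. Some genes that the rule selects are not reported here. The share of spots with a UMI was also taken after thinning to 100 UMIs. Settings that leave out spots by neural, muscle or gland UMIs, by a 3% marker share, by 500 UMIs or by a gene's top spot were chosen after seeing the data. Scripts used Python 3.11.15, numpy 2.4.6, scipy 1.17.1, pandas 2.3.3, R 4.3.3, edgeR 4.0.16 (TMM factors) and DESeq2 1.42.0 (size factors), and were tested on simulated data.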

Additional observations from a re-analysis of the deposited data

Results flagged for a closer look

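Spots under 100 UMIs, which no comparison uses, held marker genes of the epidermis. The 5 markers took 0.384% of UMIs in these micropillar spots (59 UMIs, 0.293 to 0.496%) and 0.161% in these flat spots (37 UMIs, 0.114 to 0.222%), above the limits of 0.0196% and 0.0131% that a count of 0 allows. Over all kept spots, epidermis spots included, the markers took 0.191% and 0.198%, so the share in these shallow spots was above that of kept spots in the micropillar library and below it in the flat library. Of them, 0 micropillar and 4 flat spots met the remaining conditions. Acta1, skeletal muscle actin, had opposite signs in epidermis over other spots, with a log2 ratio of 0.82 in the micropillar library and -3.64 in the flat library; 22 of its 39 micropillar UMIs lay in 1 spot, and other flat spots held 2248 UMIs of it against 541 in other micropillar spots. Aldoa, a glycolytic enzyme, had 0.11 and -0.26. With 1 library each, neither difference between libraries was tested.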

How the results depend on the processing

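No paired analysis was possible because each group has 1 library and the labels give no replicate numbers. Of the recomputed shares and counts, 90 stayed close to the reported value and 26 moved. The share of epidermis spots was 6.59% in the flat library with no minimum of UMIs and 5.29% with at least 500 UMIs (micropillar 5.14%), 3.79% in the micropillar library with a 1% marker share, 3.30% (micropillar) and 5.22% (flat) with at least 10 marker UMIs, and 2.28% and 4.74% after thinning to 100 UMIs. Genes at least 2-fold higher in epidermis spots of both libraries numbered 1992 with no filter and 753 with at least 50 UMIs per gene. Genes at least 2-fold higher in micropillar over flat epidermis spots numbered 94 with a 1% marker share, 96 with at least 10 marker UMIs, 3556 with no filter, 14 with at least 50 UMIs, 50 without hair gene UMIs, 4 after thinning, 61 without neural UMIs, 68 without gland UMIs and 39 with a 3% marker share. Genes at least 2-fold lower numbered 54 with at least 10 marker UMIs, 134 with equal spot weights, 2379 with no filter, 6 with at least 50 UMIs, 15 after thinning and 43 with a 3% marker share. Lists with a median above 0 in micropillar over flat numbered 12, against 4 after thinning and 7 without gland UMIs. In epidermis over other spots, 15 of 52 list medians had another sign in at least 1 setting; the 4 of them that were at least 2-fold from 0 as reported were neutrophil genes in the flat library (0.29 with at least 250 UMIs per spot), dermal fibroblast genes in the flat library (-0.086 with equal spot weights) and division genes (-0.20 in the micropillar and -1.42 in the flat library with at least 50 UMIs per gene). The filters change which genes are compared and the thinned sets hold far fewer UMIs; otherwise the cause was not tested. At a median of 778 and 426.5 UMIs per spot, most single genes had too few UMIs for differences under 2-fold to be detectable.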
